A study of Homo sapiens with 15 samples.

Results

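Small RNA was sequenced from human cells that received the NOX1 and NOX4 inhibitor GKT136901 at 20 µM together with the lipid hydrolysis products that lipoprotein lipase (LPL) releases from very low-density lipoprotein (VLDL), and from cells that received the hydrolysis products without the inhibitor (LPL:VLDL). The comparison takes 10 of the 15 libraries of the series, 5 per group, chosen by their labels, and each library with the inhibitor is set against the library without it from the same experiment (experiments 2 to 6). All cells were incubated for 18 h, carried no genetic change per the labels, and are described as HEK-293, an embryonic kidney line. The other 5 libraries came from cells given VLDL under a title that also names pcDNA, whose role the labels do not explain, and they entered only the estimate of the spread and a few values set side by side. There was no group with the inhibitor and without the hydrolysis products, so the effect of GKT136901 by itself was not measured, and the labels do not name a vehicle.

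NADPH oxidases pass electrons from NADPH to oxygen and so make superoxide or hydrogen peroxide. NOX1 depends on partner subunits that respond to signals, whereas NOX4 is active whenever it is present, and GKT136901 is a pyrazolopyridine dione compound that inhibits both. LPL cuts the triglycerides of VLDL into fatty acids and partial glycerides, which cells take up, burn or store in lipid droplets. A small RNA library reads short RNAs and fragments of longer ones: miRNAs, which pair through a short seed with mRNAs and lower their output; C/D box and H/ACA box small nucleolar RNAs (snoRNAs), which guide ribose methylation and pseudouridylation of ribosomal RNA; scaRNAs, which do the same for spliceosomal RNA; Y RNAs; and tRNAs, of which the mitochondrial ones are cut out of long transcripts of the mitochondrial genome.

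The sequences below belong to miRNAs and mitochondrial tRNAs whose values are given sample by sample or gene by gene further on, and to partners of theirs in a cluster, seed or hairpin, shown for comparison. For the miRNAs, capitals mark the seed (bases 2 to 8), and sequences and positions come from RefSeq on GRCh38.p14. miR-132-3p (chr17:2049929-2049950, minus strand) and miR-212-3p (chr17:2050290-2050310, minus strand) lie in 1 cluster and share a seed, while the other arm of the miR-132 hairpin (chr17:2049965-2049986, minus strand) has a different one.
hsa-miR-132-3p: uAACAGUCuacagccauggucg
hsa-miR-212-3p: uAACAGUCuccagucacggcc
hsa-miR-132-5p: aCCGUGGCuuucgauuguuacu
miR-93-5p (chr7:100093815-100093837, minus strand) and miR-106b-5p (chr7:100094043-100094063, minus strand) also share a cluster and a seed, and miR-504-5p (chrX:138667760-138667781, minus strand) shared its seed with no other well-counted miRNA gene.
hsa-miR-93-5p: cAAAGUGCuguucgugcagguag
hsa-miR-106b-5p: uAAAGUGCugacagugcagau
hsa-miR-504-5p: aGACCCUGgucugcacucuauc
miR-501-3p (chrX:50009772-50009793, plus strand) and miR-502-3p (chrX:50014649-50014670, plus strand) have 1 seed, and the seed of miR-500a-3p (chrX:50008482-50008503, plus strand) begins 1 base later on nearly the same letters.
hsa-miR-501-3p: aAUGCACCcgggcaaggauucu
hsa-miR-502-3p: aAUGCACCugggcaaggauuca
hsa-miR-500a-3p: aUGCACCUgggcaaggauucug
For the mitochondrial tRNAs, from GENCODE transcripts on GRCh38, capitals mark the anticodon: TRNP carries proline (chrM:15956-16023, minus strand), and TRNL2 and TRNS2 carry leucine and serine and are neighbours (chrM:12266-12336 and chrM:12207-12265, plus strand).
TRNP: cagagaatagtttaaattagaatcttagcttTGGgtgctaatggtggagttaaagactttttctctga
TRNL2: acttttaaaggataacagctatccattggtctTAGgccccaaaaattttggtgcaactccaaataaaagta
TRNS2: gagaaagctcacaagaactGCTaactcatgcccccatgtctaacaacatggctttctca

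The libraries with GKT136901 held 8.16 ± 1.78 M counts (1 M is 1000000 counts; SD, n = 5) and those without held 9.22 ± 0.380 M. The lowest, 5.08 M, was the GKT136901 library of experiment 3. C/D snoRNAs took 56.7% of all counts of the series and miRNAs 38.9%, so the other classes were read from the small rest, and an mRNA count is a short fragment. The labelled cell type did not match the fragments seen: of 15 marker genes of HEK-293, 9 had any count, led by MAP1B with 98 counts over the 15 libraries, while GATA3 had 1 count and LIN28B, SOX2 and EPCAM had 0. Of 22 myeloid markers 20 had counts, led by CSF1R with 1771 and ITGB2 with 1382, although AIF1 and C1QA had 0, and the series title speaks of macrophages. Several other myeloid markers were low, with CD68 at 56, CD14 at 31, LYZ at 30, MRC1 at 4 and CD163 at 3 counts. Only 10 of the 22 had enough counts to be tested. The summed level of the myeloid markers in CPM (counts per 1000000) of the total counts was 28.9 to 82.4 with GKT136901 and 28.9 to 129.3 without, and was higher with GKT136901 in 3 of 5 experiments (exact sign-flip permutation test, two-sided, p = 0.5). That of the HEK-293 markers was 0.111 to 1.44 with GKT136901 and 0.427 to 2.20 without, lower with GKT136901 in 4 of 5 experiments (same exact permutation test, p = 0.125). Blood and platelet markers had 1 count in 1 LPL:VLDL library, and hepatocyte and plasma markers summed to 0.149 ± 0.167 with GKT136901 and 0.385 ± 0.635 without. In bulk RNA, fewer cells of a type and less RNA per cell cannot be told apart.

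No gene passed the test between cells with and without GKT136901. Of 4099 genes with enough counts, 0 (0.0%) had an adjusted p under 0.05 in edgeR's quasi-likelihood test with the experiment as a block, and the lowest adjusted p was 0.9999. At an unadjusted p under 0.05 there were 151 genes (3.68%), 68 higher (1.66%) and 83 lower (2.02%) with GKT136901, and 24 of 437 well-counted genes (5.49%). DESeq2 and limma voom with the same block also called 0, with 232 and 198 genes at an unadjusted p under 0.05. Values below are therefore a description of the differences and of their spread, and none of them is a call. Levels are from here on CPM scaled by TMM factors, which align the bulk of the genes between libraries, and log2 differences with their standard errors (SE) come from the fit with the block.

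How alike the 5 experiments were can be read from the 437 genes with a mean of at least 100 counts per library, called well-counted here, which held 98.9% of the counts. Their fitted log2 differences had a median of -0.03 and lay between -0.67 and 0.52, with 183 above 0. The typical error shrank with the level: the median SE was 0.19 for genes up to 30 CPM, 0.15 from 30 to 100 CPM, 0.11 from 100 to 1000 CPM and 0.11 above 1000 CPM. Within single experiments the log2 differences of these genes had an SD of 0.30, 0.52, 0.28, 0.29 and 0.36 in experiments 2 to 6. Experiment 3 stood out, with 30 genes over 2-fold apart against 2 to 9 in the other experiments. Its GKT136901 library was the shallowest of all, and its LPL:VLDL library had the lowest TMM factor of the comparison, 0.765; the part of either in the spread was not tested.

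The differences of one experiment said little about those of another. Over the 437 genes, Pearson's r between the within-experiment differences of 2 experiments ranged from -0.34 (experiments 3 and 6) to 0.26 (experiments 3 and 4) over the 10 pairs, with a median of 0.01, and 4 of the 10 were below 0. The miRNA genes were more alike, with a median r of 0.17, a range from -0.12 to 0.43 and 2 pairs below 0. C/D snoRNA genes had a median r of -0.06 (range -0.38 to 0.37), nuclear tRNA genes 0.06 and mRNA genes -0.11. These r are across genes, which are not independent replicates. The 2 differences of a pair share no library, but genes of a library share its depth and scaling.

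**Figure D1:**
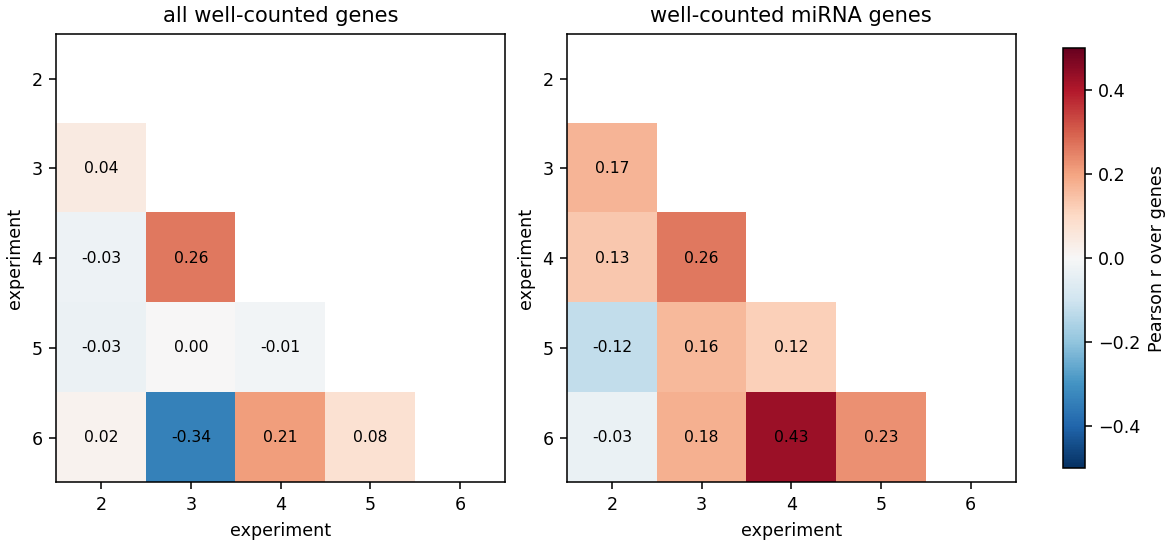
Pearson r between the within-experiment log2 differences (GKT136901 + LPL:VLDL minus LPL:VLDL) for each pair of the 5 experiments, over 437 well-counted genes (left) and 126 well-counted miRNA genes (right), with colour and printed value giving r. Over all genes the values scatter around 0 from -0.34 to 0.26; among miRNA genes 8 of 10 are above 0, the highest being 0.43.

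By the same sign rule, 21 well-counted genes (4.81%) were higher with GKT136901 in 5 of 5 experiments and 10 (2.29%) were lower, 31 in all (7.09%). Over all 4099 tested genes the shares were 3.2% higher and 3.32% lower, 6.51% in all. No well-counted gene had groups that did not overlap (0.0%). Among all tested genes, 6 did so with higher values (0.146%) and 14 with lower values (0.342%), and all of these 20, of which 17 were mRNAs, had a mean of at most 1.82 CPM. When libraries were scaled by their totals alone, 41 well-counted genes were higher in 5 of 5 experiments and 4 were lower, the share above 0 went from 41.9% to 70.0%, and the genes at an unadjusted p under 0.05 were 107 higher and 50 lower. That scaling moved the median of all tested genes by 0.0966 on the log2 scale, so the direction of small differences depends on the scaling.

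**Figure D2:**
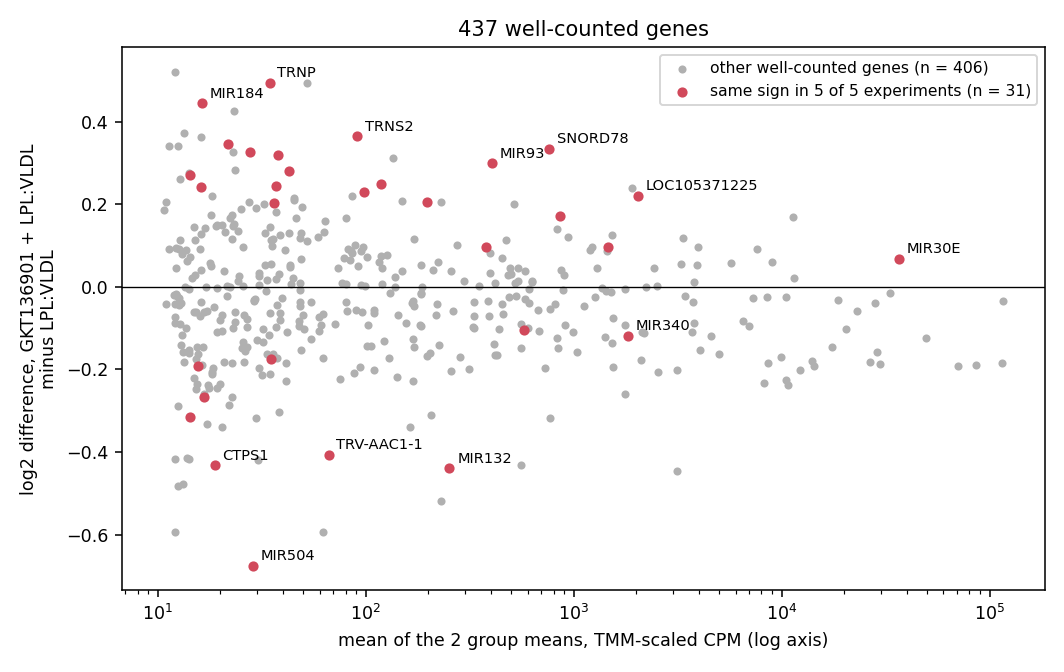
Fitted log2 difference (GKT136901 + LPL:VLDL minus LPL:VLDL) of the 437 well-counted genes against their level, the mean of both group means in TMM-scaled CPM on a log axis; red points are the 31 genes with the same sign in 5 of 5 experiments. The cloud is wider at low levels, and the red points lie at both signs, with MIR504 (-0.67) the lowest of the 437 genes.

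As shares of all counts, miRNAs made up 39.9% ± 6.76 (SD, n = 5) with GKT136901 and 38.8% ± 7.05 without, and C/D snoRNAs 55.6% ± 5.81 and 56.9% ± 6.46. The miRNA share was higher with GKT136901 in 3 of 5 experiments (exact sign-flip permutation test, two-sided, p = 0.688) and the C/D snoRNA share in 2 of 5 (same test, p = 0.625). Those 2 classes mirror each other because together they fill most of a library. In experiment 3 the miRNA share was 36.9% with and 30.8% without GKT136901, and in experiment 6 it was 42.2% and 44.5%, so the sign differed between experiments. Without experiment 3 the mean difference was -0.162 percentage points for miRNAs and 0.0519 for C/D snoRNAs, each of the opposite sign to that over 5 experiments (1.10 and -1.32). Nuclear tRNA fragments made up 0.813% ± 0.257 and 0.766% ± 0.200, mRNA fragments 1.05% ± 0.143 and 1.01% ± 0.313, and long noncoding RNA 0.679% ± 0.278 and 0.623% ± 0.246, each higher in 4 of 5 experiments. Of the 815700 long noncoding RNA counts of the series, 252361 came from the gene LOC105371225, whose overlap with tRNA genes was not examined. Y RNA stood at 1.29% ± 1.11 and 1.25% ± 1.13, where the libraries of experiment 2 held 3.24% and 3.25% and all others at most 1.05%.

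The mitochondrial shares were the ones with a single sign. Mitochondrial tRNA was 0.237%, 0.221%, 0.193%, 0.131% and 0.0905% of the counts with GKT136901 in experiments 2 to 6 and 0.236%, 0.144%, 0.181%, 0.106% and 0.0779% without. Mitochondrial ribosomal RNA was 0.131%, 0.123%, 0.125%, 0.0730% and 0.0716% with GKT136901 and 0.114%, 0.105%, 0.103%, 0.0673% and 0.0519% without. Both were higher with GKT136901 in 5 of 5 experiments, by 1.01 to 1.53 times for the tRNA and 1.08 to 1.38 times for the ribosomal RNA, while the groups overlapped because experiments differed more than treatments. The exact sign-flip permutation test (two-sided) gave p = 0.0625 for each, which is the smallest p that 5 pairs allow, and 0.469 after Benjamini-Hochberg adjustment over 15 classes, so neither share passed. In TMM-scaled values, the median difference of the tRNA genes was above 0 in 5 of 5 experiments and that of the 2 ribosomal RNA genes in 4 of 5, at -0.11 in experiment 3. Mitochondrial mRNA was 0.0533% ± 0.0157 with and 0.0471% ± 0.0232 without GKT136901, and was lower with it only in experiment 2 (0.0787% against 0.0877%).

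**Figure D3:**
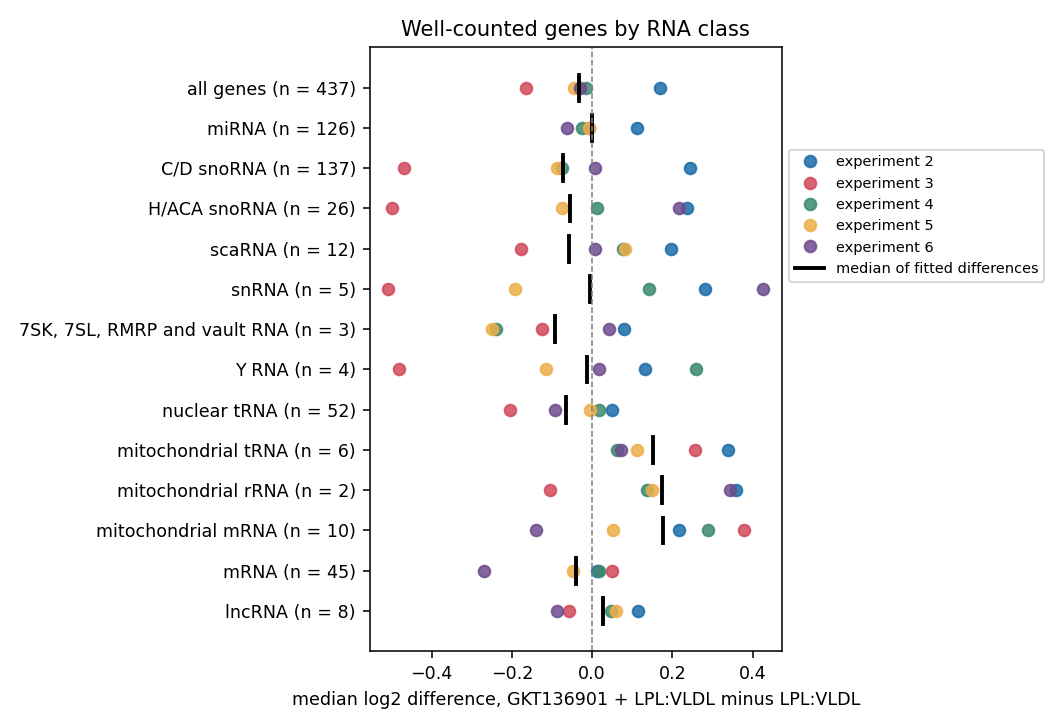
Median log2 difference (GKT136901 + LPL:VLDL minus LPL:VLDL) of the well-counted genes of each RNA class in each of the 5 experiments (coloured points), with the median of the fitted differences as a black bar; n is the number of genes. The snoRNA classes spread from -0.47 or -0.50 in experiment 3 to 0.24 in experiment 2, whereas mitochondrial tRNA has 5 of 5 points above 0.

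Gene by gene, most of the mitochondrial genome lay above 0. It is copied as long transcripts from both strands, so its genes are not independent, and reads that also match nuclear copies of mitochondrial DNA were not counted. Of 29 tested mitochondrial genes 26 had a log2 difference above 0, with a median of 0.20, beside 49.3% and a median of -0.01 over all tested genes. In experiments 2 to 6 the level was higher with GKT136901 for 22, 19, 22, 20 and 18 of the 29 genes. None of the 29 passed the test. By kind, 12 of 14 tested tRNA genes were above 0 (median 0.33), both ribosomal RNA genes, and 12 of 13 mRNA genes (median 0.19), and the exceptions were TRNA and TRNI (alanine and isoleucine) and ND3, a subunit of complex I. Of the tRNAs encoded on the opposite strand from most genes, 3 of 4 tested were above 0 (median 0.25), and of the remainder 9 of 10 (median 0.33). Among those 3, TRNY stood at 0.00 (SE 0.32) and TRNE had a mean of only 1.02 CPM (SE 0.90). Their count was 2 of 4 with TMM factors from miRNA genes, and also without experiment 2 or without experiment 5. The count above 0 was 28 of 29 with library totals as the scaling, 25 of 29 with TMM factors taken from miRNA genes, and 23 to 27 when 1 experiment was left out. Without experiment 2 the median of the tRNA genes was 0.15, and that of the 6 well-counted ones over all 5 experiments was also 0.15.

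TRNP, the proline tRNA, had the largest of these differences against its error among well-counted genes. Its level was 45.3, 37.8, 47.0, 29.9 and 40.5 CPM with GKT136901 in experiments 2 to 6 and 26.2, 37.0, 33.8, 20.3 and 27.1 CPM without. The difference was large in experiment 2 and near 0 in experiment 3, and the groups overlapped. The log2 difference was 0.49 (SE 0.15), with an adjusted p of 0.9999 in edgeR's quasi-likelihood test. TRNL2, a leucine tRNA, was below the well-counted limit: 14, 21.7, 18.5, 12.3 and 14.6 CPM with GKT136901 against 10.9, 14.5, 8.11, 8.21 and 6.84 CPM without, a log2 difference of 0.76 (SE 0.22; edgeR adjusted p 0.9999). Its neighbour TRNS2, a serine tRNA, measured 104 ± 42.2 CPM (SD, n = 5) and 78.8 ± 25.6 CPM (log2 difference 0.36, SE 0.15). TRNH, the histidine tRNA next to it, measured 210 ± 61.8 and 184 ± 58.4 CPM (0.20, SE 0.11). All 4 were higher with GKT136901 in 5 of 5 experiments. The most abundant mitochondrial tRNA, TRNF for phenylalanine, was higher in 3 of 5, at 1272 ± 435 and 1183 ± 396 CPM (0.10, SE 0.12). Among mitochondrial mRNAs, ND4 and ND4L, complex I subunits that share 1 mRNA, were higher in 5 of 5 experiments, ND4 at 42.0 ± 11.4 and 33.4 ± 6.82 CPM (0.32, SE 0.16). The ribosomal RNAs RNR2 and RNR1 had log2 differences of 0.14 (SE 0.11) and 0.21 (SE 0.12), with higher TMM-scaled levels in 3 of 5 and 4 of 5 experiments.

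**Figure D4:**
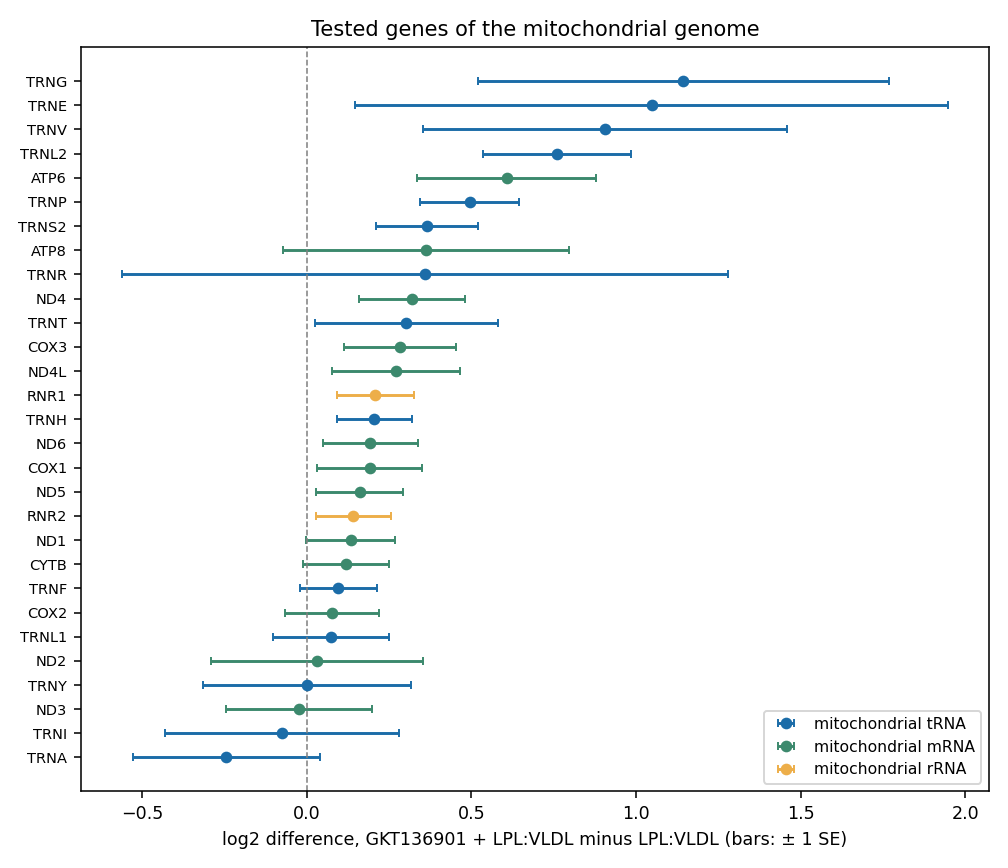
Fitted log2 difference (GKT136901 + LPL:VLDL minus LPL:VLDL) of the 29 tested genes of the mitochondrial genome, with bars of 1 SE and colour by kind of RNA. Of the 29 points 26 lie above 0. Those farthest right (TRNG, TRNE, TRNV) have wide bars, and TRNR (0.36) has the widest. No gene passed the test.

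Among the 126 well-counted miRNA genes 63 lay above 0 and 63 below, with a median of 0.00. In 5 of 5 experiments 11 were higher with GKT136901 and 5 lower. The most abundant was MIR148A, a miRNA that targets the LDL receptor mRNA, at 57544, 92547, 95405, 170350 and 146630 CPM with GKT136901 in experiments 2 to 6 and 50517, 87080, 98784, 171350 and 191260 CPM without. Its level differed more between experiments than between treatments (log2 difference -0.03, SE 0.10). MIRLET7I, of the let-7 family that restrains growth genes, had the lower level with GKT136901 in 4 of 5 experiments, at 106130 ± 22658 and 122040 ± 32085 CPM (-0.19, SE 0.10).

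MIR132, whose transcription is driven by CREB and which is known as a brake on inflammatory signalling, was lower with GKT136901 in 5 of 5 experiments. It measured 285, 197, 234, 166 and 182 CPM with GKT136901 and 334, 365, 343, 204 and 219 CPM without. The groups overlapped, since the libraries of experiments 5 and 6 were low in both. Its log2 difference was -0.44 (SE 0.13; edgeR adjusted p 0.9999), a fitted level 1.36 times higher without GKT136901. Of the 22 bases of miR-132-3p printed above, 21 lie in an exon of LOC124903896, where reads of more than 1 gene were not counted, and of the other arm 0 do, so the value speaks mainly for the other arm. Its cluster partner MIR212 measured 186 ± 71.4 and 225 ± 60.6 CPM (-0.31, SE 0.14) and was lower in 4 of 5 experiments. Against cells given VLDL, whose MIR132 level was 189 ± 83.1 CPM, the log2 difference was 0.70 (SE 0.13; edgeR adjusted p 0.0494) without GKT136901 and 0.26 (SE 0.13; edgeR adjusted p 0.997) with it. MIR132 was the 1 gene of 4099 (0.0244%) past the threshold in the first of these comparisons, which share the LPL:VLDL libraries or the VLDL libraries with the main one and are not independent of it. MIR212 gave 0.61 and 0.30 there.

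MIR504 had the largest difference of any well-counted gene. It stood at 15, 33.8, 41.0, 13.6 and 11 CPM with GKT136901 and 16.4, 52.9, 55.5, 23.6 and 24.9 CPM without. All 5 experiments had the same sign, with experiments 3 and 4 high in both groups (-0.67, SE 0.21; edgeR adjusted p 0.9999). The other miRNAs lower in 5 of 5 experiments were MIR340 (-0.12, SE 0.09), MIR361 (-0.10, SE 0.10) and MIR641 (-0.19, SE 0.18), differences of about the size of their errors.

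MIR93, of the miR-106b cluster in the MCM7 gene, was higher with GKT136901 in 5 of 5 experiments: 340, 496, 541, 424 and 428 CPM against 284, 345, 450, 423 and 310 CPM. In experiment 5 the libraries barely differed (0.30, SE 0.11; edgeR adjusted p 0.9999). Its neighbours in the cluster did not share the difference: MIR106B, with the same seed, measured 1107 ± 62.5 and 1144 ± 89.7 CPM (-0.05, SE 0.10) and MIR25 had a log2 difference of -0.03 (SE 0.09). The difference between these genes was not tested. MIR15B measured 129 ± 33.5 and 108 ± 24.3 CPM (0.25, SE 0.12), while its neighbour MIR16-2 had 0.03 (SE 0.10). Both genes have an annotated arm with the same seed, and of the 4 well-counted genes with such an arm 3 were above 0. Counts are per gene and pool both arms, and reads matching several genes were not counted. The part of a count that carried the seed was therefore not measured. MIR184 ranged from 47.8 CPM in experiment 2 to 1.49 CPM in experiment 6 with GKT136901 and from 37.8 to 1.48 CPM without, a spread between experiments far beyond that between treatments (0.44, SE 0.20).

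MIR502 (30.6 ± 7.72 against 24.7 ± 5.99 CPM; log2 difference 0.33, SE 0.16) lies in an X-linked miRNA cluster inside CLCN5. Of the 8 tested members of that cluster, which was singled out after its values were seen, 6 were above 0 with a median of 0.19, and MIR501 (0.23, SE 0.12), MIR502 and MIR660 (0.28, SE 0.16) were higher in 5 of 5 experiments. MIR532, its most abundant member, had -0.01 (SE 0.10). Grouped by seed, the 8 let-7 and miR-98 genes had a median of -0.03 (2 above 0), the 4 miR-30 genes 0.02 (2 above 0) and the 3 miR-148 and miR-152 genes 0.10 (2 above 0). These groups follow the annotated arms. Reads matching several genes of a group were not counted, so the counts need not come from the arm with the seed. The let-7 median turned to 0.07, with 7 of 8 above 0, when libraries were scaled by their totals.

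**Figure D5:**
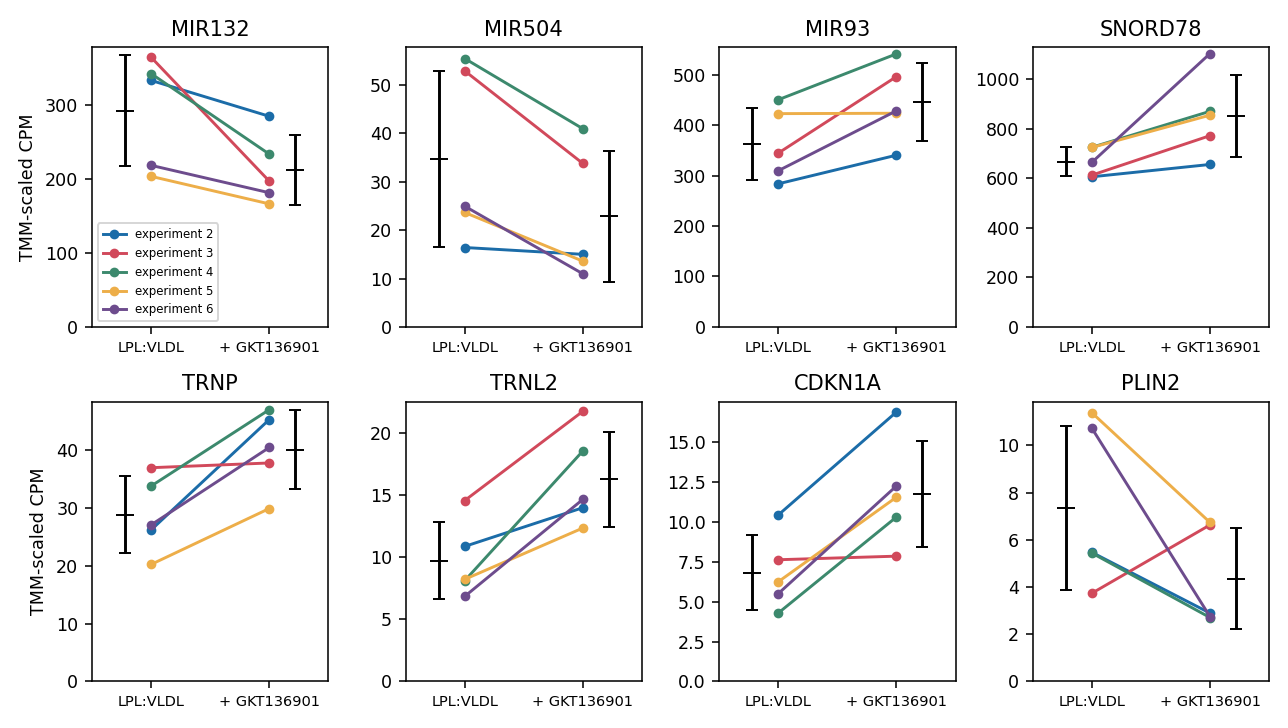
TMM-scaled CPM of 8 genes in the LPL:VLDL and GKT136901 + LPL:VLDL libraries, joined by a line for each of the 5 experiments, with group mean and SD in black beside them. For 7 of the genes the 5 lines run the same way, though several are nearly flat, and both groups overlap; PLIN2 goes up in experiment 3 and down in the other 4.

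C/D snoRNA genes had a median of -0.07, with 44 of 137 above 0, but their medians within experiments ran from -0.47 in experiment 3 to 0.24 in experiment 2. The 26 H/ACA snoRNA genes showed the same pair of extremes, -0.50 in experiment 3 and 0.24 in experiment 2, and a median of -0.05. With library totals as the scaling the C/D median was 0.03. The most abundant, SNORD49A, had 82150, 89283, 75358, 67604 and 82675 CPM with GKT136901 and 67650, 132000, 94460, 80332 and 88938 CPM without, the LPL:VLDL library of experiment 3 being highest (-0.19, SE 0.11). SNORA18, the most abundant H/ACA snoRNA, measured 1036 CPM in that same library and 280.0 to 399.9 CPM in the other LPL:VLDL libraries, against 290.3 to 555.1 CPM with GKT136901 (-0.04, SE 0.16; 0.26 without that library). SNORD78, a C/D snoRNA in an intron of GAS5, had the opposite sign: 657, 773, 871, 856 and 1105 CPM with GKT136901 and 607, 613, 726, 725 and 665 CPM without. It was higher in 5 of 5 experiments, most in experiment 6, with a log2 difference of 0.33 (SE 0.11; edgeR adjusted p 0.9999). Of the 10 snoRNAs in GAS5, 4 were above 0 with a median of -0.07, and the most abundant, SNORD44 and SNORD81, had -0.12 (SE 0.11) and -0.19 (SE 0.12). The 4 snoRNAs of RPL13A, known for a part in lipid-driven and oxidative stress, had a median of -0.03 with 2 above 0: SNORD32A -0.20 (SE 0.14) and SNORD33 0.08 (SE 0.11). The 7 tested snoRNAs of SNHG1 had 4 above 0 (median 0.00) and 10 snoRNAs of ribosomal RNA processing 4 above 0 (median -0.02). Without experiment 3 the latter had 10 of 10 above 0 (median 0.19), and with library totals as the scaling 8 of 10. The GAS5 and RPL13A medians also turned, to 0.02 and 0.05 without experiment 3 and to 0.03 and 0.06 with library totals as the scaling. SCARNA8 measured 24.5 ± 8.25 and 19.0 ± 5.34 CPM (0.35, SE 0.16) and SNORA75 12.8 ± 3.77 and 15.9 ± 4.42 CPM (-0.32, SE 0.18), each with the same sign in 5 of 5 experiments.

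Nuclear tRNA genes had a median of -0.06, with 18 of 52 above 0, and 0 of them were higher in 5 of 5 experiments. TRV-AAC1-1, a valine tRNA gene, was lower with GKT136901 in 5 of 5: 33.7, 46.0, 59.8, 72.4 and 69.2 CPM against 36.6, 71.7, 82.4, 94.9 and 97.1 CPM. Experiment 2 was low in both groups and gave the smallest gap (-0.41, SE 0.15; edgeR adjusted p 0.9999). TRS-GCT3-1, a serine tRNA gene, had -0.27 (SE 0.17), and the most abundant, TRV-CAC1-4, 2097 ± 877 and 2238 ± 827 CPM (-0.11, SE 0.10). Reads that matched several tRNA copies were not counted, so these values stand for reads placed at a single copy. Which part of the tRNA or its flanks those reads came from was not examined. Of 5 Y and vault RNAs 1 was above 0 (median -0.02), but 5 of 5 were without experiment 3 (median 0.13) and 4 of 5 with library totals as the scaling. RNY1 was 5417 to 25412 CPM with GKT136901 and 5917 to 22244 CPM without, highest in experiment 2 in both (-0.02, SE 0.09). The 4 RNAs of the 7SK, 7SL and RNase group had 0 above 0 and a median of -0.13 (2 above 0 and -0.02 without experiment 4; 2 above 0 and -0.03 with library totals as the scaling).

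The targets of the inhibitor were hardly seen in these short fragments. NOX1 had 1 count and NOX4 had 0 over all 15 libraries, which allows up to 0.0226 CPM (3 counts of the summed total, counting error only), so NOX4 was not detectable at this depth. Of 15 NADPH oxidase subunits 3 were tested: RAC1 0.40 (SE 0.63), RAC2 -0.05 (SE 0.48) and CYBA 1.26 (SE 0.72), the shared membrane subunit, named after its value was seen. Of 17 tested NRF2 and antioxidant mRNAs 8 were above 0 (median -0.03), with SOD2, the mitochondrial superoxide dismutase, at 20.8 ± 8.37 and 24.6 ± 9.60 CPM (-0.27, SE 0.19) and FTL, ferritin light chain, at 0.08 (SE 0.23). The 13 tested miRNAs tied to NOX and redox control had 7 above 0 and a median of 0.00 (11 above 0 with library totals as the scaling), led by MIR146B at 18452 ± 952 and 18877 ± 1354 CPM (-0.03, SE 0.09).

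CDKN1A, the p21 cell cycle inhibitor, had the lowest unadjusted p of all tested genes. Its fragments stood at 16.9, 7.84, 10.3, 11.5 and 12.2 CPM with GKT136901 and 10.4, 7.62, 4.28, 6.24 and 5.50 CPM without. It was higher in 5 of 5 experiments, though hardly in experiment 3, and the groups overlapped (0.80, SE 0.23; edgeR adjusted p 0.9999). Against cells given VLDL, at 10.8 ± 3.15 CPM, its log2 difference was -0.66 (SE 0.22, edgeR adjusted p 0.988) without GKT136901. With it the difference was 0.13 (SE 0.22, edgeR adjusted p 0.997). Neither passed the test, and these comparisons share libraries with the main one and are not independent of it. Other genes lay farther from cells given VLDL with GKT136901 than without. LOC105371225 had 0.28 (SE 0.10, edgeR adjusted p 0.988) without it and 0.50 (SE 0.10, edgeR adjusted p 0.0579) with it. TRNL2 had 0.19 (SE 0.23) without and 0.95 (SE 0.23) with it. How many genes went each way was not counted. PLK3, a stress kinase, was lower in 5 of 5 experiments at 9.22 ± 2.43 and 12.4 ± 1.66 CPM (-0.45, SE 0.22).

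GEM, a small GTPase, measured 1.76, 4.83, 4.88, 1.26 and 1.37 CPM with GKT136901 and 4.17, 10.8, 6.37, 4.49 and 4.16 CPM without, lower in 5 of 5 experiments (-1.21, SE 0.35; edgeR adjusted p 0.9999). PCGF1, a Polycomb subunit, had 0, 0, 2, 0 and 3 counts with GKT136901 and 18, 17, 12, 13 and 8 counts without. Its groups did not overlap, at 0.112 ± 0.160 and 1.56 ± 0.479 CPM, but at so few counts a fitted fold depends on the method (edgeR adjusted p 0.9999). Among well-counted mRNAs and long noncoding RNAs, CTPS1, a CTP synthase, was lower in 5 of 5 experiments at 16.2 ± 10.1 and 21.4 ± 12.0 CPM (-0.43, SE 0.18). In experiment 3 its libraries barely differed, at 11.46 CPM with GKT136901 and 11.50 CPM without. CAP1, an actin regulator, was higher in 5 of 5 at 40.3 ± 7.28 and 34.0 ± 7.05 CPM (0.24, SE 0.14), and so was the long noncoding RNA gene LOC105371225 at 2188 ± 469 and 1884 ± 439 CPM (0.22, SE 0.10). Whether reads of LOC105371225 are tRNA fragments was not tested.

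Genes that respond to fatty acids were few. Of 15 PPAR targets 4 were tested and 1 was above 0, with a median of -0.69. PLIN2, the coat protein of lipid droplets, measured 2.90, 6.64, 2.71, 6.74 and 2.74 CPM with GKT136901 and 5.47, 3.74, 5.44, 11.4 and 10.7 CPM without, lower in 4 of 5 experiments (-0.74, SE 0.31). Of the synthesis genes for sterols and fatty acids 7 of 11 were above 0 (median 0.13), and of the 15 tested miRNAs of lipid and cholesterol control 6 (median -0.03; 12 with library totals as the scaling). The AHR list had 2 tested members, the target TIPARP (0.11, SE 1.45) and the receptor AHR itself (-0.65, SE 0.44). Of 7 inflammatory mRNAs 5 were above 0 (median 0.19), with IL1B at 48.8 ± 21.7 and 41.7 ± 16.2 CPM (0.21, SE 0.14) and CXCL8 at 25.4 ± 12.9 and 26.9 ± 8.10 CPM (-0.18, SE 0.19). Of 7 inflammatory miRNAs 1 was above 0 (median -0.03; 4 with library totals as the scaling). Stress programs split as well: 6 of 12 integrated stress mRNAs (median 0.01), 6 of 9 heat shock and metallothionein mRNAs (median 0.07) and 2 of 7 hypoxia and glycolysis mRNAs (median -0.28) were above 0. The last median turned to 0.25 (4 of 6 above 0) without experiment 5, 0.105 (4 of 7) with limma voom and 0.02 (4 of 7) without the block, and that of the inflammatory mRNAs to -0.02 (3 of 7) without experiment 4. The miR-183 and miR-191 clusters had 2 of 3 and 1 of 2 members above 0. Of 10 tested myeloid markers 2 were above 0 (median -0.44; -0.19 without experiment 4, and -0.25 with 4 above 0 without experiment 5), with CSF1R at 9.97 ± 3.18 and 15 ± 10.2 CPM (-0.48, SE 0.24) and ITGB2 at 9.67 ± 4.30 and 9.70 ± 3.0 CPM (-0.05, SE 0.22). No member of any of these lists passed the test.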

How the data were processed

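Small RNA libraries of 15 samples were deposited as raw counts per gene, and 10 of them form the comparison described. The tools given with hg38, per the submitters' processing notes, are fastp 0.24.0 for reads and STAR 2.7.11b; edgeR 4.4.2, DESeq2 1.46 and R 4.4.2 are listed with no role. The authors counted with featureCounts 2.0.6, per the file headers, over RefSeq exons by gene and without settings for strandedness, multi-mapping or overlap. Reads with several matches or on exons of several genes were therefore lost, and strands were pooled.

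Genes were kept with edgeR's filterByExpr (minimum count 10, minimum total 15), which left 4099 of the 21453 genes with a count. The quasi-likelihood test of edgeR 4.0.16 (R 4.3.3, two-sided, TMM factors) was fitted to all 15 libraries and blocked on experiment, which leaves 8 residual degrees of freedom. Benjamini-Hochberg adjusted p-values were read at 0.05. Within-experiment differences used log2(CPM + 1). DESeq2 1.42.0 and limma 3.58.1 were alternatives, as were other scalings, filters and left-out libraries. The edgeR fit, with and without the block, was also run on simulated counts. With the block, 25.3% of 91 genes given a log2 change of 1 had an adjusted p under 0.05. For a log2 change of 2 the share was 64.0% of 75 genes. Changes of these sizes could therefore be missed among genes like those simulated. The shares were not split by level, so they are not those of the 437 well-counted genes. The median SE of well-counted genes was 0.19 up to 30 CPM and 0.11 above 1000 CPM, small against a log2 change of 1. How often such a change would be missed among well-counted genes was not measured. DESeq2 and limma were not run on the simulated counts. Numbers pair the libraries because the labels' batch field gives the same experiment to each number. GKT136901 and LPL:VLDL libraries of 1 experiment deviated from their group means together (r 0.125 to 0.432, median 0.169). For other numbers r was -0.183 to 0.169 (median -0.0904), and 4 of 5 GKT136901 libraries were closest to their own number. Deviations from a group mean cancel out within the group, so r for other numbers tends to be negative when r for the same number is positive. Whether separate cultures were used is not given, so each p-value measures only the spread between libraries, which may be technical. RNA classes came from RefSeq biotypes and names, and 119 of 126 well-counted miRNA genes had a mature sequence in RefSeq.

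The members and the gene lists were chosen with earlier results of these data known. Genes were named by rule: the 2 most abundant tested members of lists, the most abundant gene of a class, the 10 well-counted genes per direction with the lowest p among those with 1 sign in 5 of 5 experiments, 3 mRNA or long noncoding genes per direction by the same rule, and 2 per direction over all tested genes. Some genes and lists that the rule takes are not reported here. CPM and log2 differences were computed from the deposited counts.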

Additional observations from a re-analysis of the deposited data

Results flagged for a closer look

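In groups of 5 libraries, a value was marked when its gap to the nearest other library was large against the range of the group (Dixon's test). For independent, normally distributed values chance marks about 1 in 20 groups. The groups here share libraries and some hold very few counts, so the number marked cannot be set against that rate. Of 162 groups examined 15 were marked, 11 of them for a library of experiment 2.

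Depth was marked for the GKT136901 library of experiment 3, at 5.0769 M counts against 8.3607 to 9.6196 M in the others. The share of Y RNA was 3.2437% in the GKT136901 library of experiment 2 and 3.2541% in the LPL:VLDL library of the same experiment, and RNY1 stood at 25412 and 22244 CPM there. The summed myeloid markers were 82.409 CPM with GKT136901 and 129.31 CPM without in experiment 2, against at most 45.844 CPM elsewhere in these groups. In the LPL:VLDL library of experiment 2, the summed NADPH oxidase subunits were 12.282 CPM, the hepatocyte and plasma markers 1.5063 CPM, the mitochondrial mRNA share 0.087745% and MIR340 789.59 CPM, the lowest of its group. CTPS1 was 33.935 CPM in the GKT136901 library of experiment 2 and at most 15.061 CPM in the others of its group. Outside experiment 2, SNORA18 was 1036.1 CPM in the LPL:VLDL library of experiment 3, MIR362 was 15.324 CPM in the GKT136901 library of experiment 6, the lowest of its group, and the blood and platelet markers were 0.10443 CPM (1 count) in the LPL:VLDL library of experiment 5.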

How the results depend on the processing

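No setting gave a called gene: edgeR's quasi-likelihood test called 0 genes with the replicate block, with 8 residual degrees of freedom, and 0 without it, with 12. Without the block (no replicate block) 87 genes had an unadjusted p under 0.05, and the pairing changed no call; of the named genes RAC1 turned to -0.0002 and RNY1 to 0.0452. A minimum count of 50 left 712 genes, 46 of them at an unadjusted p under 0.05 and a lowest adjusted p of 0.217 (TRNP). Without a low-count filter 418 of 21453 genes were at an unadjusted p under 0.05, with a lowest adjusted p of 0.0651 (SNORD46). DESeq2's lowest adjusted p was 0.244. Each fit that left out 1 library or 1 experiment also called 0.

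Of 1482 values of 62 named genes under these settings 1415 kept their sign. With library totals as the scaling, differences below 0 turned positive for RAC2 (0.032), MIR146B (0.0698), MIR25 (0.0739), MIR148A (0.0641), MIRLET7G (0.0866), MIR106B (0.0524), ITGB2 (0.0394), SNORA18 (0.0716), RNY1 (0.0753) and MIR532 (0.0883), the median of miRNA genes became 0.0979, and 41 genes were higher and 4 lower in 5 of 5 experiments. At a minimum count of 50 the sign turned for MIR146B (0.012), MIR25 (0.0154), MIR148A (0.0066), MIRLET7G (0.0284), SNORA18 (0.0048), RNY1 (0.0171) and MIR532 (0.0307). TRNY, at 0.00, gave -0.0116 with TMM factors from miRNA genes and -0.0228 without a filter. At a mean of 1000 counts, 9 genes were higher and 3 lower in 5 of 5 experiments.

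When 1 library or 1 experiment was left out, the log2 difference crossed 0 for 14 named genes. It ranged from -0.4026 to 0.006 for CXCL8, from -0.0907 to 0.2697 for FTL, from -0.1442 to 0.0579 for ITGB2, from -0.0564 to 0.0202 for MIR146B, from -0.0872 to 0.0571 for MIR148A, from -0.009 to 0.1383 for MIR148B and from -0.0413 to 0.288 for MIR362. It ranged from -0.0419 to 0.0324 for MIR532, from -0.0599 to 0.0392 for MIRLET7G, from -0.0646 to 1.1748 for RAC1, from -0.3313 to 0.1428 for RAC2, from -0.084 to 0.0232 for RNY1, from -0.1604 to 0.2552 for SNORA18 and from -0.1342 to 0.0901 for TRNY. With 1 experiment left out, the difference in class share in percentage points (GKT136901 + LPL:VLDL minus LPL:VLDL) ranged from -2.3079 to 0.051883 for C/D snoRNA, from -0.0040031 to 0.01275 for H/ACA snoRNA, from -0.011159 to 0.11036 for mRNA, from -0.16196 to 1.945 for miRNA, from -0.010692 to 0.0045723 for scaRNA and from -0.0010228 to 0.0030992 for snRNA. The sign turned without experiment 3 for C/D snoRNA, mRNA, miRNA and scaRNA, without experiment 6 for snRNA, and without experiment 2, 4 or 6 for H/ACA snoRNA. The summed hepatocyte and plasma markers differed by -0.3415 to 0.0508 CPM. The causes were not tested. Among well-counted genes the median SE was 0.19 up to 30 CPM and 0.11 above 1000 CPM, so differences are less precise at low levels. Over all scalings, tools and left-out experiments, the median of further lists also crossed 0. Among mRNAs these were NRF2 and antioxidant (-0.231 to 0.0782), integrated stress (-0.141 to 0.122), sterol and fatty acid synthesis (-0.00625 to 0.231), and heat shock and metallothionein mRNAs (-0.0177 to 0.215). The AHR list, TIPARP and AHR itself, ran from -0.743 to 0.172. Among small RNAs these were lipid miRNAs (-0.041 to 0.065), redox miRNAs (-0.0345 to 0.0945), inflammatory miRNAs (-0.239 to 0.0698) and SNHG1 snoRNAs (-0.0301 to 0.0981). Let-7 (-0.0674 to 0.0721), the miR-106b cluster (-0.0358 to 0.0739) and the miR-191 cluster (-0.0969 to 0.0478) crossed 0 as well.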

Other observations

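Some low-level genes of the lists had the same sign in 5 of 5 experiments; they were chosen after their values were seen, and none passed the test. SREBF2, which drives sterol synthesis genes, measured 2.64 ± 1.04 CPM with GKT136901 and 1.21 ± 0.584 CPM without (log2 difference 1.09, SE 0.54). GCLC, the catalytic subunit of glutathione synthesis, measured 1.83 ± 0.604 and 3.49 ± 0.826 CPM (-0.95, SE 0.42). AHR, the aryl hydrocarbon receptor, was lower at 2.01 ± 0.713 and 3.18 ± 1.06 CPM (-0.65, SE 0.44), and MIR34B was higher at 12.8 ± 2.23 and 10.5 ± 1.5 CPM (0.28, SE 0.22). Among the 20 tested genes whose groups did not overlap, the 1 miRNA was MIR141, of the miR-200 family, at 2.42 CPM with GKT136901 and 1.05 CPM without.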
